A study of Mus musculus with 12 samples.

Results

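The genes described here are the nuclear genes for the respiratory chain of mitochondria, the subunits of complexes I to IV and of ATP synthase, together with the assembly factors of complex I. They were chosen by symbol alone, as the genes whose symbols begin with Nduf, Uqcr, Cox4 to Cox8 or Atp5 and the 4 Sdh genes. Of 105 matching symbols, 10 pseudogene or antisense entries were left out. The 95 genes that remained were among 32546 genes in the count table. They comprised 38 genes of complex I, 8 complex I assembly factors (Ndufaf genes), 4 genes of complex II, 8 of complex III, 20 of complex IV and 17 of ATP synthase. Ndufa4 and its paralogue Ndufa4l2 were counted with complex IV, since the Ndufa4 protein is a subunit of that complex. Among the 95, 93 were annotated as protein coding and 2, Cox6c2 and Ndufb4c, as processed pseudogenes.

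Photo-isolation chemistry (PIC) was used to read the transcripts of 3 hippocampal regions, CA1, CA3 and the dentate gyrus (DG), in sections of male ICR mice aged 8 weeks. In PIC, mRNA is reverse-transcribed inside the section with caged primers, and light removes the cage only in the chosen region, so that cDNA from that region is amplified. In 2 of the conditions the tissue was fresh-frozen, and the sections were opened either by 5 min in 0.1 N HCl or by 1 h in TE at 70 °C. In the other two the tissue was fixed with 4% PFA and then frozen or embedded in paraffin, and TE was used. Each of the 12 combinations of region and condition held 4 replicates, 48 in all. By the study's protocol the sections of all conditions were also exposed briefly to PFA on the slide before permeabilization, the fresh-frozen ones included. The 4 replicates of a combination carried different primer barcodes and were pooled in 1 library, so differences between regions, or between conditions, cannot be told apart from differences between libraries. Which mouse gave which replicate is not named in the sources used here, and p-values measure only the spread between barcoded replicates. The region titled CA3 is called CA2 in the series description, and the titles were followed. Replicate totals ran from 35932 to 1111804 UMIs (unique molecular identifiers, 1 for each counted cDNA), with medians of 731106.5 in fresh-frozen HCl, 629964.5 in fresh-frozen TE, 122520.5 in fixed frozen and 67528 in paraffin sections. In the 3 frozen conditions all 5 CA1 markers were higher in CA1 than in DG and all 5 granule cell markers were lower, whereas in paraffin 2 of 4 tested CA1 markers and 2 of 5 granule cell markers were called between CA1 and DG.

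The respiratory chain oxidizes NADH at complex I and succinate at complex II, passes electrons through complex III and cytochrome c to complex IV, where oxygen is reduced, and uses the resulting proton gradient to drive ATP synthase. Most subunits are encoded in the nucleus and imported, and mitochondrial DNA encodes the 13 others, which belong to complexes I, III and IV and ATP synthase. In neurons most ATP comes from this pathway, and it pays for ion pumping at synapses and along dendrites. Some complex IV subunits exist as isoforms of different tissues, with heart and muscle isoforms such as Cox6a2, Cox7a1 and Cox8b beside the widely used Cox6a1, Cox7a2 and Cox8a. Transcription of nuclear respiratory genes has been tied to the factors NRF1, GABP (also called NRF2), YY1 and the ERR receptors, whose short motifs lie in many of their promoters.

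The 250 bases before the annotated start were read from RefSeq promoter sequences of GRCm38.p6 for 77 of the 95 genes and searched on both strands for 4 motifs. A gene with more than 1 start was counted once, when any of its windows held a match. The NRF1 motif was a pair of GCGC half-sites with any 2 bases between them. It was present in 16 of the 77 genes (20.8%) and in 5.59% of 26948 other genes. Those were all other genes with a promoter sequence, not matched for expression, gene type or base content. The GABP motif, CCGGAAG, was present in 14 (18.2%, against 7.8%), the ERR motif, AAGGTCA, in 5 (6.49%, against 4.7%) and the YY1 motif, AAGATGG, in 1 (1.3%, against 5.2%). At least 1 of the 4 was found in 29 genes (37.7%, against 21%). The end of CCGGAAG can overlap the start of the YY1 and ERR motifs, and no such overlap occurs in the windows printed here. A match is a description of the letters and not a measured binding site. The windows below belong to Sdhd, Uqcrh, Atp5j and Cox8a, on which results between regions or conditions turn, and to Cox6a1, shown for its 3 matches beside Cox8a with none. All 5 lie on the minus strand, at chr5:115348959-115349208 for Cox6a1, chr9:50603850-50604099 for Sdhd, chr4:116075071-116075320 for Uqcrh, chr16:84834977-84835226 for the downstream of the 2 starts of Atp5j, and chr19:7217617-7217866 for Cox8a. They are written 5′ to 3′ towards the start, with motif matches in capitals (CTTCCGG is the GABP motif read on the other strand).
Cox6a1: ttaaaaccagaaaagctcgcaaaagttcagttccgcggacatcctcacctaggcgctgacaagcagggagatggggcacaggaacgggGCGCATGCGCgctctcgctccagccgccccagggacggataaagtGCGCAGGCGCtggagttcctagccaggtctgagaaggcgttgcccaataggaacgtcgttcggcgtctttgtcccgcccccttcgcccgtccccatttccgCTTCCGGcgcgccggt
Sdhd: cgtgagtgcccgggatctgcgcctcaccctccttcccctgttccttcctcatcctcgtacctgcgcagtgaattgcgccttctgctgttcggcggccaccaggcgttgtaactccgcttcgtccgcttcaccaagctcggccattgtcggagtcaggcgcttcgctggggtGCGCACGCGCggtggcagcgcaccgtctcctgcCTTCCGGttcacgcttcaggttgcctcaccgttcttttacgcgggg
Uqcrh: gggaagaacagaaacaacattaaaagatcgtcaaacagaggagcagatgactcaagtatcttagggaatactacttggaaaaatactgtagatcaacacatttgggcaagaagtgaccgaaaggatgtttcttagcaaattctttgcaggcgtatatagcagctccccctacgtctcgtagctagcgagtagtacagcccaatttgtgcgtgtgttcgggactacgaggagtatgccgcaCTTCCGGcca
Atp5j: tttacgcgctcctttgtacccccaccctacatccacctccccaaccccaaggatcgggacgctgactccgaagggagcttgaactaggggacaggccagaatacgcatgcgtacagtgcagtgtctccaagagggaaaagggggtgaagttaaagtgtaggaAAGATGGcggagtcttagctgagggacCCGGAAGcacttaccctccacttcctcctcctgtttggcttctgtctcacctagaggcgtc
Cox8a: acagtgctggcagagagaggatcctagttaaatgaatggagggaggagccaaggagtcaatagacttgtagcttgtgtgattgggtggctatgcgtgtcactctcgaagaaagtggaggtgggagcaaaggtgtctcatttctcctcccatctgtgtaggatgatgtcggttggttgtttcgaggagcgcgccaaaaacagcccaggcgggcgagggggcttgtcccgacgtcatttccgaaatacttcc
Cox6a1 holds the NRF1 motif at both upstream matches and the GABP motif next to the start, Sdhd holds 1 of each, and Uqcrh holds a GABP motif. The downstream window of Atp5j holds a YY1 and then a GABP motif. The window before its other start, chr16:84835626-84835875, is not printed and holds none of the 4 motifs.

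All 95 genes had at least 1 UMI, 52 had UMIs in all 48 replicates and 14 had fewer than 100 UMIs in total. Counts were taken at the 3′ end of transcripts, where each molecule gives 1 UMI whatever its length, so they were not divided by length. Counts scaled to 1000000 UMIs of a replicate (CPM) are a scale for comparing samples. The largest count of any of these genes in 1 replicate was 768, out of 4096 different UMIs of 6 bases. In this tissue the widely used isoforms held nearly all counts of complex IV. Cox4i1 had 5673 UMIs over all replicates and Cox4i2 had 4. Cox6a1 had 11299 and Cox6a2, the heart and muscle isoform, had 47. Cox8a had 5557 and Cox8b had 4. The same order held for Cox6b1 (4232) over the testis isoform Cox6b2 (33), Cox7b (4239) over Cox7b2 (50), Ndufa4 (7812) over Ndufa4l2 (9), and Cox7a2 (2890) and Cox7a2l (3500) over Cox7a1 (24). Of the 3 genes for the c subunit of the ATP synthase rotor, Atp5g3 had 8313 UMIs, Atp5g1 had 702 and Atp5g2 had 41.

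Several subunits that every copy of a complex needs were nevertheless nearly uncounted. Cox5a, a subunit of complex IV, had 14 UMIs in all, beside 2552 for Cox5b. Uqcrc2, a core protein of complex III, had 45, beside 791 for Uqcrc1. Ndufb6 and Ndufb7 of complex I had 26 and 86, and Sdhd, a membrane anchor of complex II, had 130, beside 6625 for Sdha. Of the 50-base windows in the last 400 bases of each transcript, 52.7% for Cox5a, 50% for Uqcrc2 and 39.8% for Ndufb6 were also found in transcripts of other genes, whereas none were for Ndufb7 or Sdhd. Their counts are therefore uncertain where sequence is shared, and the part of shared sequence in the low counts was not tested. Over the whole set, 50 genes had no shared window and 8 had 50% or more, among them Atp5l at 78.6% (13 other genes, most of them processed pseudogenes) and Ndufs3 at 64.7%.

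The summed level of the 95 genes differed mainly between conditions. In fresh-frozen HCl sections the sum was 10759 ± 588 CPM in CA1, 11057 ± 1073 in CA3 and 9171 ± 545 in DG (mean ± SD, n = 4). In fresh-frozen TE sections it was 12009 ± 1441, 10905 ± 833 and 10776 ± 691 CPM in the same order. In fixed frozen sections it was 20085 ± 685, 22657 ± 878 and 20625 ± 638 CPM, and every fixed frozen replicate lay above every fresh-frozen TE replicate of its region. In paraffin sections it was 10496 ± 1654, 12344 ± 2022 and 11080 ± 961 CPM, below every fixed frozen replicate.

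**Figure D1:**
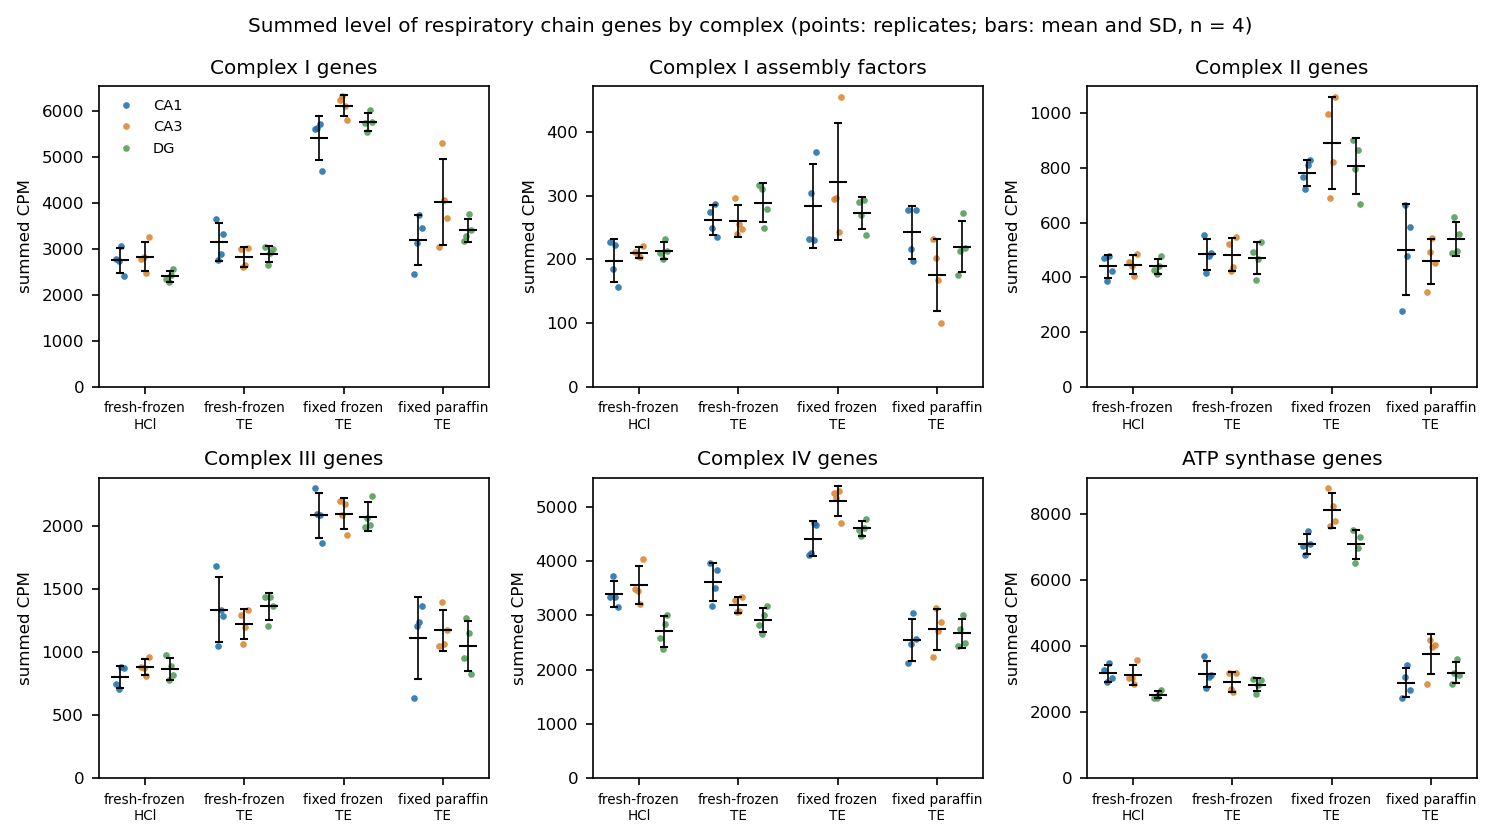
Summed CPM (vertical axis) of the genes of each complex in the 4 histological conditions (horizontal axis), with 1 point per replicate coloured by region and the mean and SD of 4 replicates in black. The ATP synthase genes stand at 7093 to 8121 CPM on average in fixed frozen sections, against 2841 to 3158 in fresh-frozen TE sections, while the complex I assembly factors overlap between these conditions.

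The complexes did not move in proportion. From fresh-frozen TE to fixed frozen sections, the ratio of mean summed CPM in the 3 regions was 2.25 to 2.77 for ATP synthase, 1.72 to 2.17 for complex I, 1.61 to 1.85 for complex II, 1.52 to 1.71 for complex III and 1.22 to 1.6 for complex IV, with no overlap of replicates in any region. For the complex I assembly factors, which help build the enzyme and are not part of it, the ratio was 0.945 to 1.24 and the replicates overlapped in every region. That sum includes Ndufaf4, the highest of these genes, which fell from a mean of 144 to 77.5 CPM over 12 replicates. By gene, 4 of the 8 assembly factors were higher and 1 was lower, with a median log2 fold change of 0.75. ATP synthase held 34.4% to 35.8% of the UMIs of these genes in fixed frozen sections (range of the 3 regional means), against 26.3% to 26.8% in fresh-frozen TE, 27.7% to 29.5% in fresh-frozen HCl and 27.7% to 30.6% in paraffin. Complex IV held 21.9% to 22.5% in fixed frozen sections and 22.3% to 24.3% in paraffin, against 27.1% to 30.2% in fresh-frozen TE and 29.4% to 32.1% in fresh-frozen HCl. Complex III held 7.49% to 9.49% in fresh-frozen HCl and 11.1% to 12.6% in fresh-frozen TE. These shares are descriptions and were not tested.

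Between fixed frozen and fresh-frozen TE sections, most of the genes rose. In the fit over 24 replicates with region as a covariate (edgeR quasi-likelihood test, adjusted p under 0.05), 60 of 87 genes tested were higher in fixed frozen sections and 6 were lower, while 15.8% of all genes tested were higher and 32.9% lower. The median log2 fold change was 0.95 for these genes and -0.39 for all genes. With DESeq2 size factors in edgeR, 61 were higher and 6 lower, with medians of 0.94 and -0.42. By complex, 14 of 17 ATP synthase genes, 26 of 36 complex I genes, 3 of 4 complex II genes, 6 of 8 complex III genes, 7 of 14 complex IV genes and 4 of 8 assembly factors rose. Falls were found in 3 genes of complex IV, 2 of complex III and 1 assembly factor, and in none of complexes I and II or ATP synthase. For 25 genes every one of the 12 fixed frozen replicates lay above all 12 fresh-frozen TE replicates, and for 3 genes every one lay below. Among all genes tested, 2.36% lay wholly above and 4.44% wholly below in the same sense.

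The largest rises were in complex I. Ndufv1, the subunit that binds FMN and accepts electrons from NADH, had 13.5, 20.1 and 32.4 CPM in fresh-frozen TE (lowest, median and highest of 12) and 138, 207 and 290 CPM in fixed frozen sections. The groups did not overlap, and the log2 fold change was 3.2 ± 0.17 (SE; adjusted p = 5.31e-31). Ndufs3, another core subunit, went from 2.70, 11.3 and 26.4 CPM to 60.8, 123 and 183 CPM, a log2 fold change of 2.99 ± 0.22 (adjusted p = 5.36e-22), with no overlap. Part of its 3′ end is shared with 2 processed pseudogenes, so its counts are uncertain where sequence is shared. The membrane arm subunits Ndufb10 (log2 fold change 2.36), Ndufa13 (2.12), Ndufb1 (2.07) and Ndufb4 (2.04) also rose. Among the other core subunits, Ndufs7 rose by 0.92 and Ndufv2 by 1.32 on the log2 scale, and Ndufs1 (0.03 ± 0.12) and Ndufs8 (0.87 ± 0.54) were not called.

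In ATP synthase, the catalytic β subunit Atp5b had 254, 339 and 416 CPM in fresh-frozen TE and 1037, 1283 and 1686 CPM in fixed frozen sections, lowest, median and highest of 12. Its log2 fold change was 1.91 ± 0.10 (adjusted p = 2.44e-31), and the groups did not overlap. The α subunit Atp5a1 rose by 1.25 ± 0.11, and the peripheral stalk subunits Atp5pb and Atp5o by 1.45 and 1.59, on the log2 scale. In complex II, which also belongs to the tricarboxylic acid cycle, the anchor Sdhc rose by 2.02 ± 0.16 and the iron-sulfur subunit Sdhb by 1.5 ± 0.17, while the flavoprotein Sdha, at 0.25 ± 0.11, was not called. In complex III, Uqcrb rose by 1.65 and the hinge protein Uqcrh by 0.80 ± 0.12, again as log2 fold changes.

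Against this direction stood 6 genes, 3 of them in complex IV. Cox8a, a small membrane subunit, had 160, 277 and 395 CPM in fresh-frozen TE and 0, 55.2 and 148 CPM in fixed frozen sections. All 12 fixed frozen replicates lay below all 12 fresh-frozen TE replicates, and the log2 fold change was -2.19 ± 0.17 (adjusted p = 3.66e-20). Cox6b1, which faces the intermembrane space, had 156, 248 and 311 CPM against 43.5, 83.4 and 128 CPM in fixed frozen sections, a log2 fold change of -1.44 ± 0.15, also without overlap. The assembly factor Ndufaf4 (log2 fold change -0.97 ± 0.17), Cox7a2l, which takes part in joining complexes III and IV (-0.80 ± 0.13), and the complex III core gene Uqcrc1 (-0.72 ± 0.31) fell as well. Uqcrc2 was also called lower, with no UMI in any fixed frozen library, and its few counts support no fold change.

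**Figure D2:**
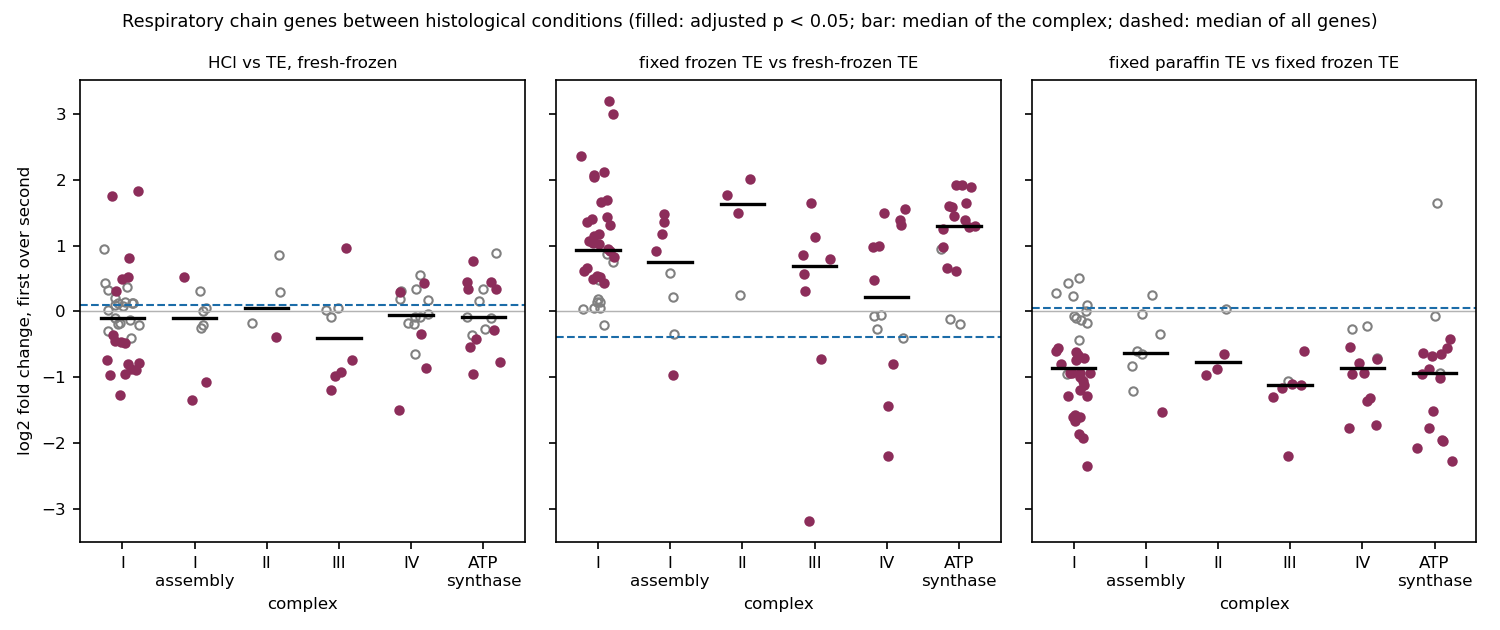
Log2 fold change (vertical axis, first group over second) of each tested gene by complex (horizontal axis) in the 3 comparisons of histological conditions. Filled points had an adjusted p under 0.05, open points did not, the black bar is the median of the complex and the dashed line the median of all genes tested, which stood at 0.10, -0.39 and 0.05 from left to right.

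Other genes of mitochondrial energy metabolism were read beside these. Of 17 genes of the tricarboxylic acid cycle, 11 were higher and 2 lower in fixed frozen than in fresh-frozen TE sections, as were 13 and 1 of 33 tested genes for electron carriers and other assembly factors. Of 11 tested regulators of mitochondrial biogenesis, 1 was higher and 6 were lower. Of the 13 subunits encoded by mitochondrial DNA, 8 were higher and 3 lower. Markers of other cells moved in the same comparison, with 4 of 5 endothelial, 4 of 4 tested mural, 3 of 3 tested erythrocyte and 3 of 5 astrocyte markers and 2 of 3 tested choroid plexus markers lower in fixed frozen sections and none of these higher. Of 5 oligodendrocyte markers 4 were lower and 1 higher, and of 5 interneuron markers 3 were lower and 1 higher. Summed endothelial markers were 213 to 354 CPM in fresh-frozen TE and 18.9 to 179 CPM in fixed frozen replicates. The part of these cells and of depth in the rise of the respiratory genes was not tested. With all replicates thinned to the smallest total, 47 genes were higher and 3 lower, with a median log2 fold change of 1.05 against -0.07 for all genes. In irradiated tissue, fewer cells of a type and less RNA per cell cannot be told apart.

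Between paraffin and fixed frozen sections, 57 of 84 genes tested were lower in paraffin and none was higher with edgeR (61 had an unadjusted p under 0.05), while 14.4% of all genes tested were lower and 13.7% higher. The median log2 fold change was -0.90, against 0.05 for all genes. With DESeq2 2 genes were higher and 44 lower, and with DESeq2 size factors in edgeR 3 were higher and 47 lower. The size factors moved the median of all genes to 0.22 and that of these genes to -0.72. All complexes took part, with 14 of 17 ATP synthase genes, 24 of 36 complex I genes, 9 of 12 complex IV genes, 6 of 7 complex III genes, 3 of 4 complex II genes and 1 of 8 assembly factors lower. This comparison shares the fixed frozen libraries with the one before it, so the values of a gene in both are not independent.

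The falls ranged from -2.35 to -0.42 as log2 fold changes and differed within a complex. Atp5pb had 449, 618 and 775 CPM in fixed frozen sections (lowest, median and highest of 12) and 82.7, 125 and 232 CPM in paraffin, a log2 fold change of -2.27 ± 0.17 (adjusted p = 9.14e-32) with no overlap. Atp5a1 had 863, 1131 and 1487 CPM against 207, 296 and 420 CPM, a log2 fold change of -1.97 ± 0.15, also without overlap. Atp5o and Atp5k, also of ATP synthase, fell by only 0.56 and 0.42 on the log2 scale. In complex I, Ndufb11 had 188, 239 and 339 CPM against 15.6, 43.4 and 131 CPM, a log2 fold change of -2.35 ± 0.22, whereas Ndufs3 (0.01 ± 0.21) and Ndufb10 (-0.43 ± 0.19) were not called. Uqcrb in complex III (-2.20 ± 0.33) and Atp5mpl (-2.08 ± 0.17) were among the largest falls. For 12 genes all paraffin replicates lay below all fixed frozen replicates, as 0.533% of all genes tested did.

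Other mitochondrial genes were read in the same comparison. Of 15 tested tricarboxylic acid cycle genes, 10 were lower in paraffin than in fixed frozen sections and none was higher. Of 11 tested mitochondrially encoded subunits edgeR called none (4 had an unadjusted p under 0.05), with a median log2 fold change of -0.14. The respiratory genes stood at 160 ± 41 (CA1), 199 ± 56 (CA3) and 197 ± 56 (DG) UMIs for each 1000 UMIs of mitochondrially encoded subunits in paraffin, against 386 to 474 in fixed frozen sections (range of the 3 regional means). In fixed frozen CA1 the replicates stood at 283, 552, 473 and 277, at totals of 69037, 180873, 117298 and 54201 UMIs. In paraffin CA1 they stood at 101, 171, 170 and 198, at totals of 46852, 55561, 70791 and 35932. Median totals were 67528 in paraffin and 122520.5 in fixed frozen sections, and the part of depth in this contrast was not tested. Oligodendrocyte markers were higher in paraffin, 5 of 5, at 5244 to 20469 summed CPM against 1737 to 14905, and their part in the falls was not tested.

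Between the 2 ways of permeabilizing fresh-frozen sections the changes went both ways. Of 90 genes tested, 15 were higher with HCl and 27 lower, beside 16.2% of all genes higher and 14.3% lower, and the medians were -0.08 for these genes and 0.10 for all genes. With DESeq2 size factors in edgeR, 18 were higher and 26 lower, with medians of -0.05 and 0.14. Same-numbered HCl and TE replicates deviated together, at correlations of 0.26 to 0.37 in CA3 and 0.17 to 0.34 in DG. The fit above did not use the replicate number. With it as a block the medians were -0.07 for these genes and 0.11 for all genes, and the count of calls moved by less than 1.5 times. In the sums, the ratio of HCl to TE in the 3 regions was 0.6 to 0.721 for complex III and 0.741 to 0.811 for the assembly factors, with no overlap of replicates. Ndufaf4, the highest of the assembly factors, had a mean of 71.2 CPM with HCl and 144 with TE. By gene, 1 of the 8 assembly factors was higher and 2 were lower, with a median log2 fold change of -0.10. In complex III 4 of 8 genes fell with HCl and Uqcrc1 rose. Uqcrh had 157, 228 and 357 CPM with TE (lowest, median and highest of 12) and 70.7, 114 and 173 CPM with HCl, a log2 fold change of -1.19 ± 0.12 (adjusted p = 2.79e-11) in which the groups overlapped slightly. Cox7a2l fell more, from 247, 275 and 368 CPM to 69, 118 and 161 CPM, a log2 fold change of -1.5 ± 0.11 with no overlap. Ndufaf8 (-1.35), Ndufa2 (-1.27) and Ndufaf4 (-1.08) had the next largest falls by log2 fold change.

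Higher with HCl were 3 core subunits of complex I. Ndufv1 had 50.2, 81.4 and 149 CPM with HCl, above all 12 TE replicates, and its log2 fold change was 1.75 ± 0.16 (adjusted p = 9.4e-13). Ndufs8, an iron-sulfur subunit of complex I, had a log2 fold change of 1.84 ± 0.32 on low counts, with a median of 12.4 CPM against 3.03. The core subunit Ndufs1 fell by 0.46 with HCl, Ndufs7 rose by 0.52 and Uqcrc1 by 0.97 on the log2 scale, and in ATP synthase Atp5g1 rose by 0.76 and Atp5b by 0.45. Endothelial markers were also higher with HCl, 4 of 5, at 259 to 525 summed CPM against 213 to 354, and their part was not tested. Of the mitochondrially encoded subunits 1 of 13 was higher and 5 were lower.

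The regions were compared within each condition with 8 replicates a comparison, so counts of calls are not comparable with those between conditions. Fresh-frozen HCl sections, which had the highest median total, had the most calls at the depth of the files (24, 8 and 8 in the 3 region pairs). With all replicates thinned to the smallest total the calls were 3, 1 and 0 in these sections and 0, 4 and 2 in fixed frozen sections. Between CA1 and DG in that condition, 23 of 86 genes tested were higher in CA1 and 1 was lower, while 8.61% of all genes were higher and 8.35% lower, 17% in either direction. The median log2 fold change was 0.39 for the respiratory genes and 0.03 for all genes. The genes came from every complex, 8 from complex I, 3 from complex II, 3 from complex III, 4 from complex IV and 5 from ATP synthase, and none was an assembly factor. Thinned to the smallest total, 3 genes remained called of 65 tested, and the directions of Uqcrc1 (log2 fold change -0.12) and Uqcrh (0.02) turned. Markers of oligodendrocytes moved with this comparison, 5 of 5 higher in CA1, at 8657 to 17728 summed CPM in CA1 and 3004 to 4993 in DG, with no marker at 0. Astrocyte markers moved the other way, 2 of 5 lower in CA1, at 1395 to 1792 summed CPM against 2407 to 3353. Mitochondrially encoded subunits were higher in CA1, 10 of 11 tested. They stood at 21682, 23750, 22467 and 55174 summed CPM in the CA1 replicates and at 11919 to 19355 in DG. The highest value came from CA1 replicate 4, which had 127253 UMIs, against 610016 to 869363 in the other CA1 replicates. The part of these markers and subunits in the result was not tested.

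In complex II, 3 of the 4 genes were higher in CA1 than in DG. The fourth, Sdha, which held most of the complex II counts, had 293, 228, 294 and 259 CPM in CA1, 377, 331, 314 and 402 in CA3 and 363, 341, 364 and 377 in DG. Its CA1 replicates lay below all those of the other regions, but neither difference was called, at -0.42 ± 0.17 over DG (adjusted p = 0.0838) and -0.45 ± 0.15 over CA3 (adjusted p = 0.063) as log2 fold changes. The summed complex II genes stood at 440.4 ± 43.1 CPM in CA1 and 440.1 ± 27.0 in DG (mean ± SD, n = 4). Sdhb had 75.2, 80.3, 94.3 and 118 CPM in the 4 CA1 replicates and 31.2, 35.7, 45.7 and 46.1 CPM in DG, a log2 fold change of 1.13 ± 0.25 (adjusted p = 0.000799). CA1 lay above DG throughout, and also above CA3, at 48.1 to 57.8 CPM (log2 fold change 0.70 ± 0.21). Sdhc was higher in CA1 by 1.05 ± 0.26 over DG and by 0.81 ± 0.23 over CA3 as log2 fold changes. Sdhd was called too, at 2.29 ± 0.64 over DG and 2.83 ± 0.58 over CA3, but rests on few UMIs. Its CA1 replicates held 23, 6, 16 and 0 UMIs, those of DG 1, 1, 1 and 4, and those of CA3 2, 4, 1 and 1, so the highest and the lowest count both came from CA1. Against DG its call was lost with DESeq2 and without CA1 replicate 1 (log2 fold change 1.79) or DG replicate 3 (1.80). In paraffin CA1 it had 0 UMIs in 4 replicates, which allows a level of up to 14.3 CPM.

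In ATP synthase, Atp5j, a subunit that couples the catalytic head to the membrane part, had 112, 98.4, 105 and 86.4 CPM in CA1 with HCl, 46.1, 50.3, 42 and 50.6 in CA3 and 31.2, 43.4, 38.1 and 54.4 in DG. CA1 stood apart from both, with log2 fold changes of 1.33 ± 0.24 over DG and 1.07 ± 0.20 over CA3, while CA3 and DG overlapped. In fresh-frozen TE its replicates lay between 26.8 and 57.5 CPM in all regions and overlapped. Atp5g1, a c subunit gene, was higher over DG in CA1 (1.83 ± 0.30) and in CA3 (1.12 ± 0.35), as log2 fold changes. Atp5b had smaller differences, 0.63 ± 0.16 and 0.42 ± 0.13.

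In complex I the largest difference on enough counts was in Ndufs8 (log2 fold change 1.41 ± 0.43), lost with DESeq2 and without CA1 replicate 3 (1.13) or DG replicate 3 (1.40), and then in the supernumerary subunit Ndufa3 (1.38 ± 0.31), the acyl carrier protein Ndufab1 (1.27) and Ndufb1 (1.19). Ndufb6 was called as well, with no UMI in DG, and too few counts for a fold change. In complex III, Uqcr11 (1.00), Uqcrb (0.97) and Uqcrc1 (0.85) were higher in CA1, and Uqcrh alone was lower. It had 95.8, 77, 96.6 and 70.7 CPM in CA1 and 131, 115, 173 and 138 in DG, a log2 fold change of -0.67 ± 0.20 (adjusted p = 0.0176) without overlap, lost without CA1 replicate 2 (-0.61) or DG replicate 3 (-0.54). In complex IV, Cox7a2 had 219, 236, 224 and 236 CPM in CA1, 188, 164, 160 and 194 in CA3 and 88, 99.3, 122 and 134 in DG. Its log2 fold changes over DG were 1.05 ± 0.19 in CA1 and 0.71 ± 0.17 in CA3. Replicates of the 3 regions did not overlap, but the difference between CA1 and CA3 was not called. Between these regions 6.57% of all genes tested lay wholly above CA3 in CA1.

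Between CA3 and DG with HCl, 8 of 88 genes were higher in CA3 and none was lower, against 8.99% of all genes called in either direction, and the median was 0.38 against 0.02. The share of genes called was thus near that of all genes, while the median was not. Replicates with the same number deviated together in this pair, and with the number as a block 23 genes were called, all higher in CA3. The share of all genes called with the block is not given here, so the 23 cannot be set against the 8.99%. Cox8a led, with 417, 602, 485 and 476 CPM in CA3 and 204, 268, 235 and 180 in DG, a log2 fold change of 1.16 ± 0.16 (adjusted p = 1.6e-05) without overlap. Ndufa3, Atp5g1, Atp5e, Ndufb11, Atp5d, Cox7a2 and Atp5b followed, at 1.16 to 0.42. The call of Atp5g1 was lost with DESeq2 and when any 1 of 5 replicates was left out, at log2 fold changes down to 0.80. Oligodendrocyte markers were higher in CA3 here as well, 5 of 5, at 6307 to 9205 summed CPM in CA3, and so were 7 of 11 mitochondrially encoded subunits, while 2 of 5 astrocyte markers were lower.

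Between CA1 and CA3 with HCl, 6 of 88 genes were higher in CA1 and 2 lower, against 9.13% of all genes called. The higher genes were Sdhd, Atp5j, Sdhc, Ndufab1, Sdhb and Ndufa1, and the lower ones Cox7a2l (-0.70 ± 0.20) and Ndufb11 (-0.68 ± 0.20). The count of calls was 4, 3 and 3 without CA1 replicates 1, 2 and 3 and 5 without CA3 replicate 3. Since each region was 1 library, CA1 values recur in both of its comparisons, and DG values in both of theirs.

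In fresh-frozen TE sections fewer genes differed. Between CA1 and DG 8 of 84 were higher in CA1 and none lower, against 10.1% of all genes called, with medians of 0.26 and 0.01. Among them were Uqcrc1 (log2 fold change 1.26 ± 0.31), Atp5d (0.92 ± 0.22), Cox8a (0.74 ± 0.16), Ndufb9, Cox7a2, Cox4i1 (0.62 ± 0.16) and Cox6b1 (0.53 ± 0.16). Without DG replicate 2 the count was 5, and thinned to the smallest total no gene was called (9 of 65 had an unadjusted p under 0.05) and the directions of Ndufb9 (-0.11) and Cox6b1 (-0.02) turned. Between CA3 and DG, Atp5d (0.95 ± 0.21) and Cox8a (0.70 ± 0.16) were higher, 2 of 85 against 7.91% of all genes, and 4 genes were called without CA3 replicate 1. Between CA1 and CA3, Ndufa5 of complex I was higher in CA1 (0.63 ± 0.18), 1 of 86 against 4.4% of all genes. Of 86 genes, 15 had an unadjusted p under 0.05 there, DESeq2 called none, and no gene was called without CA1 replicate 1 or 4 or CA3 replicate 1, 2 or 3, with 4 to 17 at an unadjusted p under 0.05. With the replicate number as a block the 3 counts were 18 (14 higher, 4 lower), 7 (6 and 1) and 4 (all higher). The shares of all genes called with the block are not given here. Oligodendrocyte markers were again higher in CA1 and in CA3 than in DG, 5 of 5 each, at 5491 to 9323 and 5123 to 6874 summed CPM against 2344 to 3190. Astrocyte markers were lower in CA1 (2 of 5) and in CA3 (4 of 5), at 1939 to 2682 and 1892 to 2362 summed CPM against 2797 to 4558. The part of both in the results was not tested.

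In fixed frozen sections CA1 had no higher gene over DG with edgeR and 4 lower ones of 82 (11 had an unadjusted p under 0.05 in either direction), against 8.14% of all genes called, with medians of -0.10 and -0.11. The 4 were Cox7c (log2 fold change -1.03 ± 0.23), Atp5d (-1.0 ± 0.26), Cox7a2l (-0.90 ± 0.27) and Uqcrh (-0.72 ± 0.20). CA3 had 4 higher genes over DG, Cox8a (1.15 ± 0.37), Atp5o (0.76), Atp5k (0.67) and Cox7a2 (0.66 ± 0.20), and 2 lower, Atp5l (-1.31 ± 0.31) and Atp5d (-0.72 ± 0.25), 6 of 81 against 9.27% of all genes. This count was 3 without CA3 replicate 1 or 3 or DG replicate 3, and the call of Atp5d was lost with DESeq2 and when any 1 of 6 replicates was left out, at -0.62 to -0.80. Between CA1 and CA3, Atp5l was higher (1.08 ± 0.36) and Ndufa10 (-0.80) and Cox4i1 (-0.69 ± 0.21) were lower in CA1, 3 of 79 against 7.2% of all genes, and 1 gene was called without CA1 replicate 2. DESeq2 called none of the 3, with 8 genes at an unadjusted p under 0.05. In these sections 5 of 5 oligodendrocyte markers were higher in CA1 than in DG, at 6808 to 14905 summed CPM against 1737 to 2660, and 3 of 4 tested astrocyte markers were lower. Their part in the result was not tested.

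In paraffin sections 1 of 74 genes was called between CA1 and DG (3.29% of all genes), 3 of 77 between CA3 and DG (3.21%) and 3 of 74 between CA1 and CA3 (2.36%). Of these 7 calls, 2 were for Atp5d, higher in CA3 over both other regions, and 2 for Atp5l, higher in CA1 over both. Ndufa3 and Ndufaf3 were higher in CA3 than in DG, and the calls of Ndufa3 were lost when any 1 of 5 replicates was left out, at log2 fold changes of 1.28 to 2.35. Ndufa13 was lower in CA1 than in CA3 (log2 fold change -1.47 ± 0.43). Between CA3 and DG only 1 gene was called without CA3 replicate 2 or 3 or DG replicate 1, 2 or 4, and 5 were without CA3 replicate 1. Between CA1 and DG 2 were called without CA1 replicate 1, 3 or 4 or DG replicate 4.

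**Figure D3:**
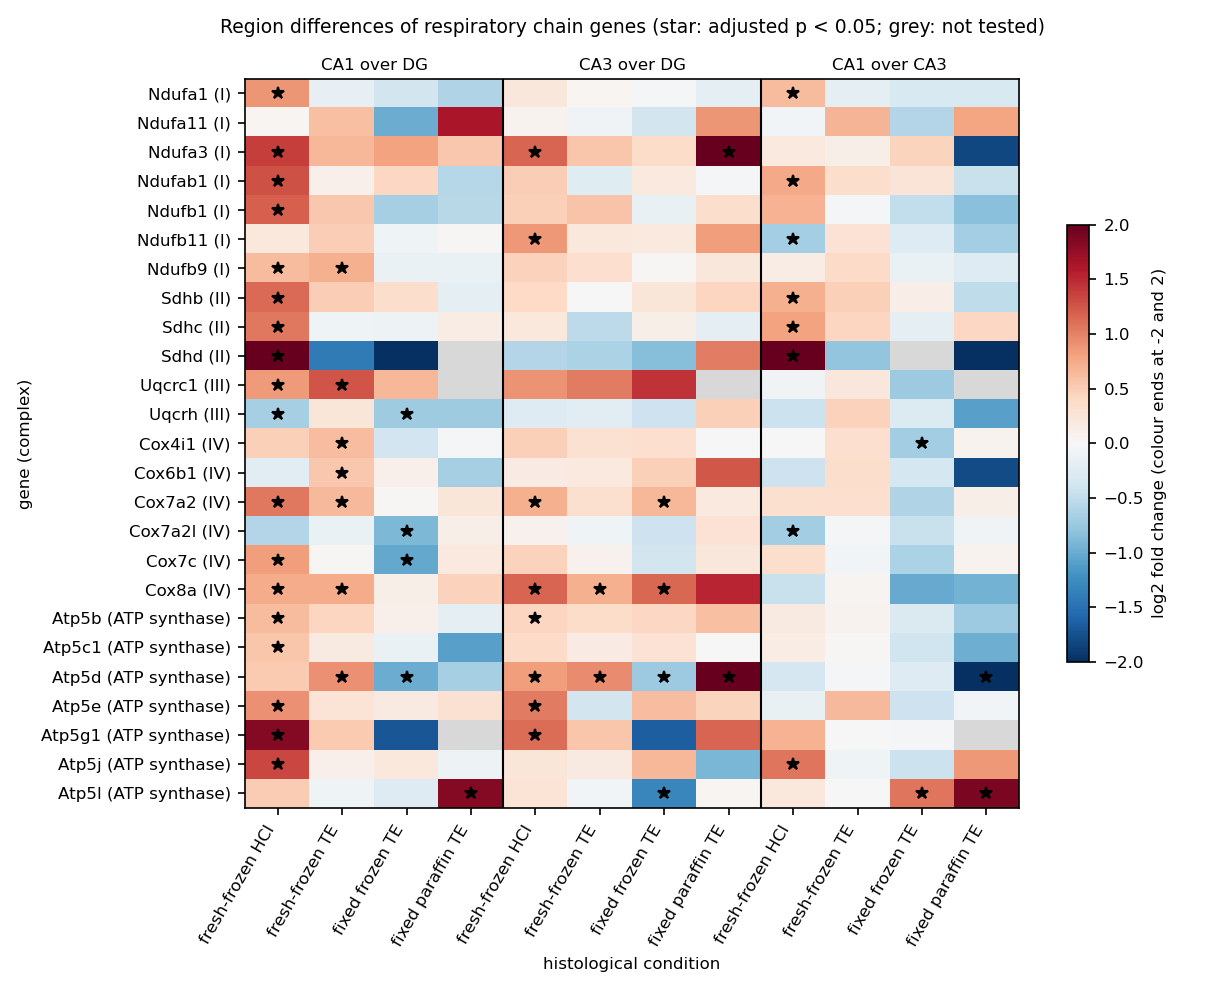
Log2 fold changes (colour, ending at -2 and 2) between regions in the 4 histological conditions (columns) for genes called in at least 2 region comparisons or in the tests of region by condition (rows, complex in parentheses), with a star where the adjusted p was under 0.05 and grey where a gene was not tested. Cox8a has 5 stars, all for a higher level than DG, whereas Atp5d has 7 stars that change direction between columns.

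Over the 12 region comparisons, 37 genes were called at least once and 21 at least 2 times. Cox8a was called 5 times and Cox7a2 4 times, each time higher than in DG. With TE Cox8a had 279, 362, 362 and 343 CPM in CA1, 273, 344, 395 and 276 in CA3 and 179, 221, 250 and 160 in DG, so that both CA regions lay above DG and overlapped each other. In fixed frozen sections it had only 0, 60.8, 85.3 and 18.4 CPM in CA1, 112, 148, 70.5 and 37.9 in CA3 and 22.4, 61.9, 49.5 and 27.5 in DG, and the regions overlapped. The call there between CA3 and DG was lost with DESeq2 and without CA3 replicate 1 (1.06) or 2 (0.78) or DG replicate 1 (0.98) or 4 (1.03). In paraffin its 12 replicates lay between 0 and 181 CPM.

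Whether the difference between regions changed with the condition was tested with an interaction over 32 replicates in each pair of regions. For CA1 against DG, 12 of 89 genes were called, against 2.72% of all genes tested. For CA3 against DG it was 2 of 89 against 1.06%, and for CA1 against CA3 6 of 90 against 1.34%. Without single replicate numbers the first count was 6, 5 and 4 (numbers 1, 2 and 3), the second was 1 for each number, and the third was 2, 2 and 3 (numbers 1, 2 and 3). Thinned to the smallest total, each test called 1 gene. Atp5d, Atp5l, Sdhd, Uqcrh and Atp5j were called in more than 1 pair.

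Atp5d, the δ subunit in the central stalk of ATP synthase, had the smallest adjusted p of these genes for CA3 against DG and for CA1 against CA3. With HCl it had 88.9, 83.6, 129 and 94.3 CPM in CA1, 101, 149, 115 and 124 in CA3 and 59.6, 82.2, 62.2 and 75.4 in DG. With TE it had 78.1, 84.4, 98.6 and 64.8 CPM in CA1, 76.6, 95.3, 84.7 and 72.3 in CA3 and 36.6, 49.4, 55.4 and 30.6 in DG. In both fresh-frozen conditions DG was the lowest region, and its replicates lay below all those of CA1 and CA3. The difference of CA1 over DG with HCl was not called, and its closest replicates stood at 83.6 and 82.2 CPM. In that comparison 8.94% of all genes tested lay wholly above DG in CA1. With all replicates thinned to the smallest total these low counts did not keep the direction for CA3 over DG with HCl (log2 fold change -0.12) and CA1 over DG with TE (-0.02). The thinning was a single random draw, and how these signs vary between draws was not tested.

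The order of the regions for Atp5d was different in fixed tissue. In fixed frozen sections it had 116, 149, 136 and 55.4 CPM in CA1, 102, 176, 157 and 133 in CA3 and 224, 234, 260 and 248 in DG, which was now above both. In paraffin it had 42.7, 36, 56.5 and 27.8 CPM in CA1, 248, 353, 376 and 276 in CA3 and 88.1, 44.5, 85.2 and 15.6 in DG. CA3 stood far above both other regions there, with log2 fold changes of 2.24 ± 0.34 over DG (adjusted p = 2.16e-06) and, for CA1 over CA3, -2.79 ± 0.48 (adjusted p = 3.11e-06), and CA1 and DG overlapped. The interaction had an adjusted p of 2.03e-07 for CA3 against DG, 7.03e-05 for CA1 against DG and 0.000196 for CA1 against CA3. No 50-base window of its 3′ end was found in another gene. Each of these groups was 1 library, and a difference of library cannot be told apart from one of region in any of them.

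Atp5l, the g subunit in the membrane part of ATP synthase, was called between regions in fixed tissue and not in fresh-frozen tissue. In fixed frozen sections it had 174, 116, 196 and 184 CPM in CA1, 91.7, 35.3, 110 and 56.8 in CA3 and 171, 143, 214 and 229 in DG, so that CA3 was below both. In paraffin it had 149, 324, 240 and 195 CPM in CA1, 57.9, 70.5, 83.7 and 25.1 in CA3 and 40.7, 80, 80.7 and 31.1 in DG, so that CA1 was above both, with log2 fold changes of 1.83 ± 0.37 over DG and 1.88 ± 0.46 over CA3. In fresh-frozen TE all replicates lay between 25.7 and 40.8 CPM. Because 78.6% of its 3′ windows occur in other genes, its values are uncertain. The call over CA3 in paraffin was lost without CA1 replicate 2 (1.63).

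Cox7c, a small subunit of complex IV, turned between CA1 and DG. With HCl it had 465, 382, 376 and 283 CPM in CA1 and 238, 143, 225 and 276 in DG, higher in CA1 throughout, with a log2 fold change of 0.84 ± 0.19. With TE the regions overlapped, at 196 to 357 CPM in the 12 replicates. In fixed frozen sections it had 116, 166, 264 and 184 CPM in CA1 and 432, 391, 346 and 294 in DG, lower in CA1 throughout, with a log2 fold change of -1.03 ± 0.23. The interaction had an adjusted p of 7.07e-06. Windows of its 3′ end were shared with other genes for 38.1%.

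Uqcrh was lower in CA1 than in DG with HCl and in fixed frozen sections, where it had 261, 381, 426 and 221 CPM in CA1, 458, 374, 407 and 379 in CA3 and 485, 514, 553 and 624 in DG. With TE it had 357, 209, 284 and 251 CPM in CA1, 200, 157, 241 and 195 in CA3 and 242, 204, 289 and 214 in DG, and the regions overlapped. Its interactions had adjusted p values of 0.0257 for CA1 against DG and 0.0175 for CA1 against CA3. The call in fixed frozen sections was lost with DESeq2 and without CA1 replicate 1 (-0.59) or 4 (-0.57).

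**Figure D4:**
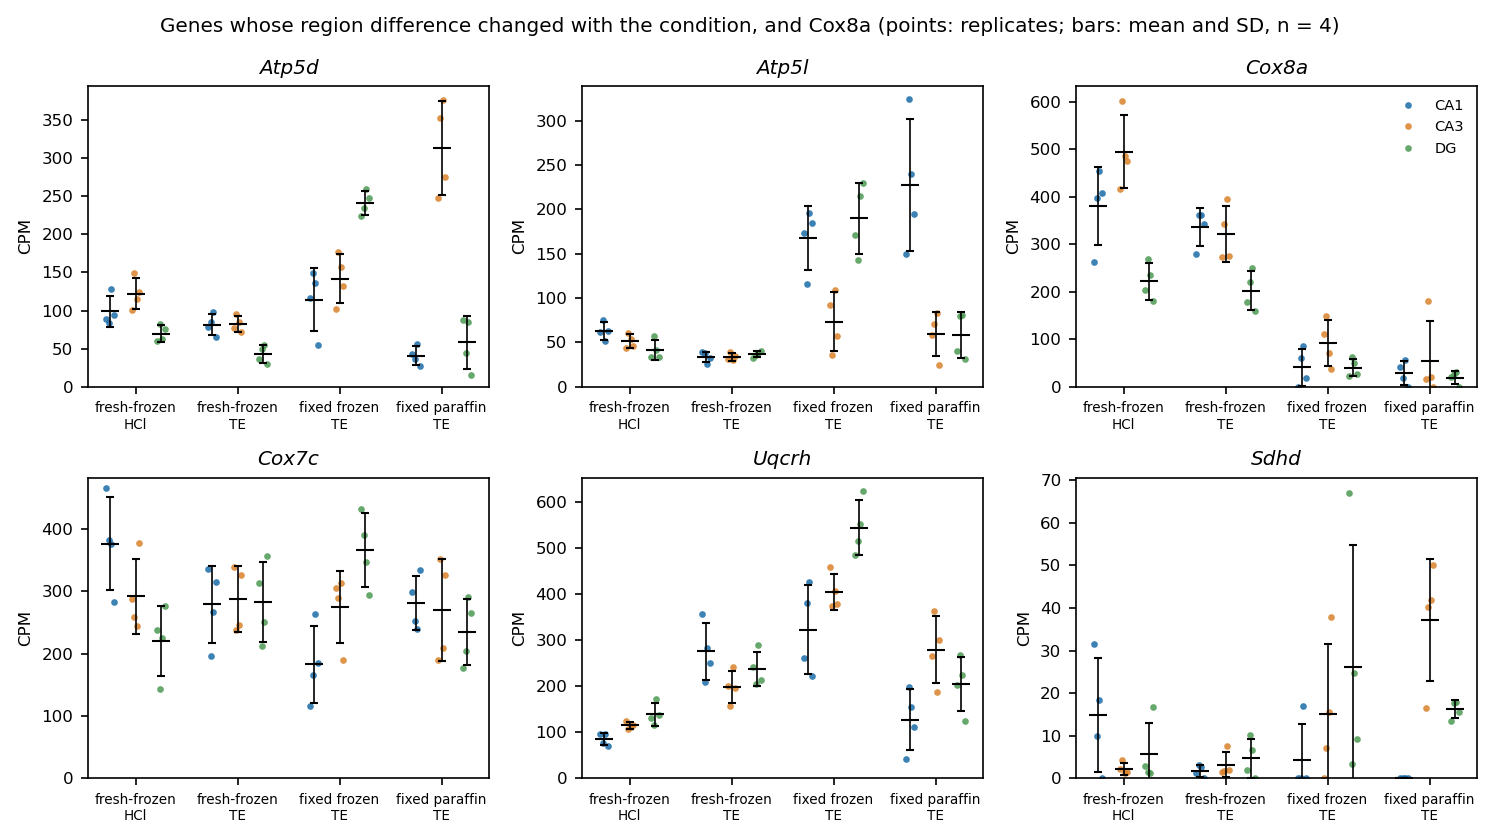
CPM (vertical axis) of 6 genes in the 4 histological conditions (horizontal axis), with 1 point per replicate coloured by region and the mean and SD of 4 replicates in black. Atp5d in DG moves from the lowest region in fresh-frozen sections to the highest in fixed frozen sections, Cox8a lies at 160 CPM or more in all fresh-frozen replicates and at 148 CPM or less in all fixed frozen ones, and Sdhd reaches 67.1 CPM at most.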

How the data were processed

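The authors deposited raw UMI counts in 1 table, with 32546 genes in rows and the 48 replicates in columns, none of them left out here. Per the submitters' processing notes the tools were HISAT2 2.1.0 with GRCm38, featureCounts 1.6.4, UMI-tools 1.0.0 and DESeq2 1.20.0. UMIs of 6 bases were extracted, and different UMIs were counted per gene and barcode. UMIs drawn more than once count as 1, which can lower the highest counts.

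Replicates were grouped by the sample titles and the numbers in the table. Counts were tested with edgeR 4.0.16 (quasi-likelihood F test, TMM, low genes dropped below a sum of 10 UMIs in the fit) in R 4.3.3. Each region comparison used 8 replicates, each comparison of conditions 24 with region as a covariate, and each of 3 interaction tests 32. Benjamini-Hochberg adjustment ran over every gene of the fit, and calls needed an adjusted p below 0.05. Standard errors were taken from the fitted change and its F statistic. CPM were counts per 1000000 UMIs of a replicate. Limits at a count of 0 are 3 UMIs over the group's total, and such limits cover counting error only. Scripts were tested on simulated data. Medians of all genes and DESeq2 size factors are given beside comparisons of conditions, which differ in depth.

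Replicates with the same number were compared by the correlation of their deviations from the library mean. All 4 correlations were over 0.1 in 6 of 21 pairs of libraries, and ranged from -0.041 to 0.433 in all. The 6 were CA3 with DG in HCl, all 3 region pairs in fresh-frozen TE, and HCl with TE in CA3 and in DG. The labels do not name the source of this pairing.

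The genes, lists and tests were chosen with earlier results of these data known. Named genes were those called with a mean of at least 5 UMIs and among the 5 largest changes in each direction of a comparison, those called in 1 direction in at least 3 conditions, the 3 of highest level per complex, fixed isoform sets, Sdh genes and core subunits, and those called in an interaction. Other names serve to complete a count given in the text and were chosen after their values were seen. The alternatives were DESeq2 1.42.0, edgeR with the size factors of DESeq2, the fit of all genes without a count minimum, totals without mitochondrially encoded genes, thinning, TMM-scaled totals and a correction for UMIs drawn more than once in the sums, the replicate number as a block, and leaving out each replicate. RefSeq promoters and annotated transcripts of GRCm38 gave the sequences. Proteins were not analysed here. Single values of some genes are not reported here. Tables and figures were made with pandas 2.3.3, numpy 2.4.6 and matplotlib 3.10.9.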

Additional observations from a re-analysis of the deposited data

Results flagged for a closer look

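Over 251 groups of 4 replicates, 12 had a replicate far from the other three by Dixon's test, about as many as chance gives at 1 in 20. The values were 4705 CPM for the summed complex I genes in fixed frozen CA1 replicate 4, 2871 for ATP synthase in paraffin CA3 replicate 1 and 19680 for all 95 genes in fixed frozen DG replicate 2. Among single genes, Cox8a was at 181.3 CPM in paraffin CA3 replicate 2. Sdhd was at 16.75 CPM in HCl DG replicate 4, 7.505 in TE CA3 replicate 3 and 17.05 in fixed frozen CA1 replicate 3. Atp5g1 was at 18 CPM in paraffin CA1 replicate 2 and Ndufa1 at 183.5 in fixed frozen CA3 replicate 2. Atp5j was at 156.5 CPM in fixed frozen DG replicate 1 and 126 in paraffin CA1 replicate 2. Cox6b1 was at 260.6 CPM in TE CA1 replicate 2, the only one of these single-gene values below its group.

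The difference between regions changed with the condition in 20 cases by the interaction test of edgeR. For CA1 against DG the adjusted p was 7.07e-06 for Cox7c, 7.03e-05 for Atp5d, 0.000345 for Atp5g1 and for Ndufb1, 0.0011 for Sdhd, 0.0038 for Atp5l, 0.0227 for Ndufa11, 0.0257 for Uqcrh, 0.0304 for Atp5c1, 0.0307 for Ndufa1, 0.0347 for Cox4i1 and 0.0496 for Atp5j. For CA3 against DG it was 2.03e-07 for Atp5d and 0.0446 for Atp5l. For CA1 against CA3 it was 0.000196 for Atp5d, 0.000259 for Sdhd, 0.0154 for Cox6b1, 0.0175 for Uqcrh, 0.0279 for Atp5j and 0.0484 for Atp5l. The pairs share libraries, so a gene called in more than 1 pair is not independent evidence, and each combination of region and condition was 1 library.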

How the results depend on the processing

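Fewer genes were called at lower depth. Thinned to the smallest total, calls numbered 3 (CA1 over DG), 1 (CA3 over DG) and 0 (CA1 over CA3, 6 at an unadjusted p under 0.05) with HCl, 0, 0 and 0 with TE (9, 3 and 3 unadjusted), 0 for CA1 over DG in fixed frozen sections (4 unadjusted), 1 for CA3 over DG in paraffin, 14 for HCl over TE and 1 in each interaction. Thinning turned Uqcrc1 (-0.12) and Uqcrh (0.0213) for CA1 over DG and Atp5d (-0.12) for CA3 over DG with HCl, and Atp5d (-0.0194), Cox6b1 (-0.0213) and Ndufb9 (-0.11) for CA1 over DG with TE. These are log2 fold changes of fewer counts by construction. They come from a single random draw, and how their signs vary between draws was not tested. With the replicate number as a block the calls were 23 for CA3 over DG and 14 for CA1 over CA3 with HCl, 18, 7 and 4 with TE, 7 for CA1 over DG and 7 for CA1 over CA3 in fixed frozen sections, 5 for CA3 over DG in paraffin and 6 in the CA3 and DG interaction, and the other counts moved by less than 1.5 times. For the fits with a block the share of all genes called is not given here. All 4 same-number correlations were over 0.1 in HCl CA3 against DG and the TE region pairs. In the region pairs of fixed frozen and paraffin sections they were positive, at 0.028 to 0.286. There 3 or 4 of the 4 replicates of the first library correlated best with their own number. In HCl CA1 against CA3 2 did, and in HCl CA1 against DG none did, at correlations of 0.0010 to 0.092. The main fits did not use the number, and the labels do not say what it stands for. With DESeq2 the calls were 0 for CA1 over CA3 with TE (9 unadjusted), 2 and 0 (8 unadjusted) for CA1 over DG and CA1 over CA3 in fixed frozen sections, 1 for CA3 over DG in paraffin, and 4 and 14 in the CA3 and DG and the CA1 and CA3 interactions. With size factors they were 2 for CA1 over DG and 5 for CA3 over DG in paraffin. With no filter on low counts they were 3 for CA3 over DG and 1 for CA1 over CA3 in fixed frozen sections. Apart from the fewer counts of thinning, the cause of these changes was not tested.

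Without single replicates, calls ran from 16 to 25, 6 to 9 and 3 to 8 with HCl (CA1 over DG, CA3 over DG, CA1 over CA3), 5 to 10, 2 to 4 and 0 to 1 with TE, 3 to 5, 3 to 7 and 1 to 3 in fixed frozen sections and 1 to 2, 1 to 5 and 2 to 4 in paraffin. They ran from 36 to 37 for HCl over TE, 57 to 64 for fixed over fresh-frozen and 47 to 52 for paraffin over fixed frozen sections, and from 4 to 9, 1 to 1 and 2 to 4 in the interactions. Of the named log2 fold changes under other alternatives, 983 kept their direction and call, 146 lost the call and 6 reversed. Of the summed CPM under other scalings, 75 moved by more than 1 SD and 261 did not, of which 34 and 50 were with TMM-scaled totals. With these totals the ratio of fixed to fresh-frozen TE sums was 1.87 to 2.28 for ATP synthase, 1.43 to 1.79 for complex I, 1.01 to 1.42 for complex IV and 0.848 to 1.0 for the assembly factors.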
